A study of Mus musculus with 124 samples.

Results

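Histone H3 lysine 9 (H3K9) methylation marks silent chromatin, and at imprinted genes it sits on the parental copy that stays DNA-methylated. Described here are 8 mouse genes, of 27015 symbols in the oocyte table, 25239 in the blastocyst table and 24409 in the table of dorsal dentate gyrus (dDG, a hippocampal region rich in granule neurons). They were chosen by name: the H3K9 methyltransferases Ehmt1, Ehmt2, Setdb1, Suv39h1 and Suv39h2, and the imprint-protecting factors Trim28, Zfp57 and Zfp445. All 8 had a row in each table.

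Mice exposed to human chorionic gonadotropin (hCG, the hormone that triggers ovulation) were compared with controls (Ctrl). Females of the hCG group received 7.5 IU into the peritoneum during natural estrus, with no priming by PMSG, and their denuded metaphase II oocytes were taken 14 h later. Ctrl females in estrus were caged with a vasectomised male and their oocytes were taken the next morning, so mating and time since ovulation were not matched and cannot be told apart from hCG. Blastocysts were flushed from the uterus at embryonic day 3.5. Offspring gave the dDG at 8 weeks of age, under tribromoethanol and after perfusion. Each group had 6 oocyte, 28 blastocyst and 6 dDG libraries, and 44 bisulfite samples of the series were not analysed here. The strain, and whether libraries came from separate females or litters, is not given in the sources used here, so p-values measure the spread between these libraries, which may in part be technical.

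EHMT1 (also called GLP) and EHMT2 (G9a) form a paired enzyme that places 1 or 2 methyl groups on H3K9 in gene-rich chromatin. SUV39H1 and SUV39H2 place the third methyl group at repeats near centromeres. SETDB1 trimethylates H3K9 at retrotransposons and imprinted control regions, where TRIM28 (KAP1) brings it. TRIM28 binds no DNA sequence by itself and is recruited by KRAB zinc finger proteins, among which ZFP57 and ZFP445 are the ones known to protect imprints in the early embryo. The maternal store of these proteins is laid down in the growing oocyte.

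On the GRCm38.p6 build, RefSeq placed Ehmt1 at chr2:24790769-24919643, Suv39h2 at chr2:3455815-3474986, Setdb1 at chr3:95323525-95357202 and Trim28 at chr7:13024152-13031032. Zfp445 lay at chr9:122848910-122886851, Ehmt2 at chr17:34898463-34914073, Zfp57 at chr17:37001163-37010729 and Suv39h1, on the X chromosome, at chrX:8061171-8074760. Setdb1 overlapped Cers2, Suv39h2 overlapped Dclre1c, Trim28 overlapped Gm31649 and Zfp445 overlapped Zkscan7. Whether counting used the strand is not given in the sources used here. Reads in the overlaps could thus belong to either gene of these pairs, and their number was not measured.

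Promoter sequence was available from RefSeq (GRCm38.p6) for all 8 genes. The stretch from 250 to 51 bases before the start is shown for both paralog pairs, whose members differed in their calls, and for Setdb1. Capitals mark the GC box (GGGCGG or CCGCCC), the CCAAT box (CCAAT or ATTGG) and the E-box (CACGTG), searched on both strands; no marked motif shares bases with another.
Ehmt1, chr2:24919660-24919859, minus strand: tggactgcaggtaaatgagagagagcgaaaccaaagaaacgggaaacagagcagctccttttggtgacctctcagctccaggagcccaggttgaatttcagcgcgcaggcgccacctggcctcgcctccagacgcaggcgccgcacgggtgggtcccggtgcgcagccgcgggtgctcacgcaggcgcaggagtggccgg
Ehmt2, chr17:34898224-34898423, plus strand: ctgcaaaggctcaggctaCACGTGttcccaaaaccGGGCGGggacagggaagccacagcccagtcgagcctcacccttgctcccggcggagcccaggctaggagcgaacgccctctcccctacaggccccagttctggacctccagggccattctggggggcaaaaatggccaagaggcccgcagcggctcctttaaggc
Suv39h1, chrX:8074811-8075010, minus strand: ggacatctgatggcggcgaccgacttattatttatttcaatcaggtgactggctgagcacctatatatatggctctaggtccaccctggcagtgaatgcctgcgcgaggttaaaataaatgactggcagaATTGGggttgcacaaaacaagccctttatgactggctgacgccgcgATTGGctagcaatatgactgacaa
Suv39h2, chr2:3475037-3475236, minus strand: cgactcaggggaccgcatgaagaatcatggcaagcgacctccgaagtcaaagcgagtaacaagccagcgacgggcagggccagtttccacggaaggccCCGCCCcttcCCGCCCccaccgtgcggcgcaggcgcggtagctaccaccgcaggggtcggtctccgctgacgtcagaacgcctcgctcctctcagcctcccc
Setdb1, chr3:95357253-95357452, minus strand: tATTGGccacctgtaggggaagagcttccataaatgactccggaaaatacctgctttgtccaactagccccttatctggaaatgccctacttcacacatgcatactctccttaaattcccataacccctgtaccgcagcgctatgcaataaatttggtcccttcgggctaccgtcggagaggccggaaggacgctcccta

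Ehmt1 had 17 CpG dinucleotides in these 200 bases and Ehmt2 had 10, at nearly the same GC content of 65% and 65.5%. Suv39h1 had 8 CpG at 48.0% GC and Suv39h2 had 21 at 67.5% GC. The median over 32851 mouse promoters was 4 CpG. Suv39h2 held 2 GC boxes, Ehmt2 held 1 GC box and 1 E-box, Suv39h1 held 2 CCAAT boxes, Setdb1 held 1 and Ehmt1 held none of the 3 motifs. Of all promoters, 24.6% held a GC box, 28.4% a CCAAT box and 4.34% an E-box in the same window. A match describes these letters and shows no bound factor.

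Library depth ran from 2379861 to 6924189 counts in oocytes, from 3043231 to 10859379 estimated reads in blastocysts and from 14991582 to 17859654 expected counts in dDG, and levels are given as CPM, the reads of a gene scaled to a common library total. A gene was called changed when its p, adjusted by Benjamini-Hochberg over all genes tested, was under 0.05. Oocyte libraries held 5700 to 10670 CPM of 6 summed oocyte markers and at most 6.21 CPM of cumulus and granulosa markers, of which Ptx3 and Foxl2 were at 0 throughout. Blastocyst libraries held markers of trophectoderm, inner cell mass and primitive endoderm, and dDG libraries held 957 to 1654 CPM of 6 granule neuron markers. In bulk samples, fewer cells of a type and less RNA per cell cannot be told apart. The deposited oocyte table also listed near 0 some genes that every cell uses: of 3813 genes at 20 CPM or more in both other tables, 350 (9.18%) averaged under 1 CPM in Ctrl oocytes, among them 8 of 70 ribosomal protein genes such as Rpl3, Rpsa and Rps19.

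Across the 3 materials, hCG and Ctrl differed for 4 of the 8 genes in at least 1 material. By material, 1 of 6 tested members was called in oocytes, 2 of 8 in blastocysts and 2 of 8 in dDG. Over all genes tested, 3.99% were called in oocytes, 16.2% in blastocysts and 7.86% in dDG. The share of all genes called in at least 1 material was not computed, so the 4 of 8 has no like value beside it. Ehmt1 was lower in hCG oocytes and blastocysts, Setdb1 was lower in hCG blastocysts, Suv39h1 was lower in dDG of hCG offspring and Trim28 was higher there. The other 4 genes, Ehmt2, Suv39h2, Zfp57 and Zfp445, did not pass the threshold by the edgeR or limma test used for each table. The called differences ran from 0.587-fold (Ehmt1 in oocytes) to 1.14-fold (Trim28 in dDG).

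**Figure D1:**
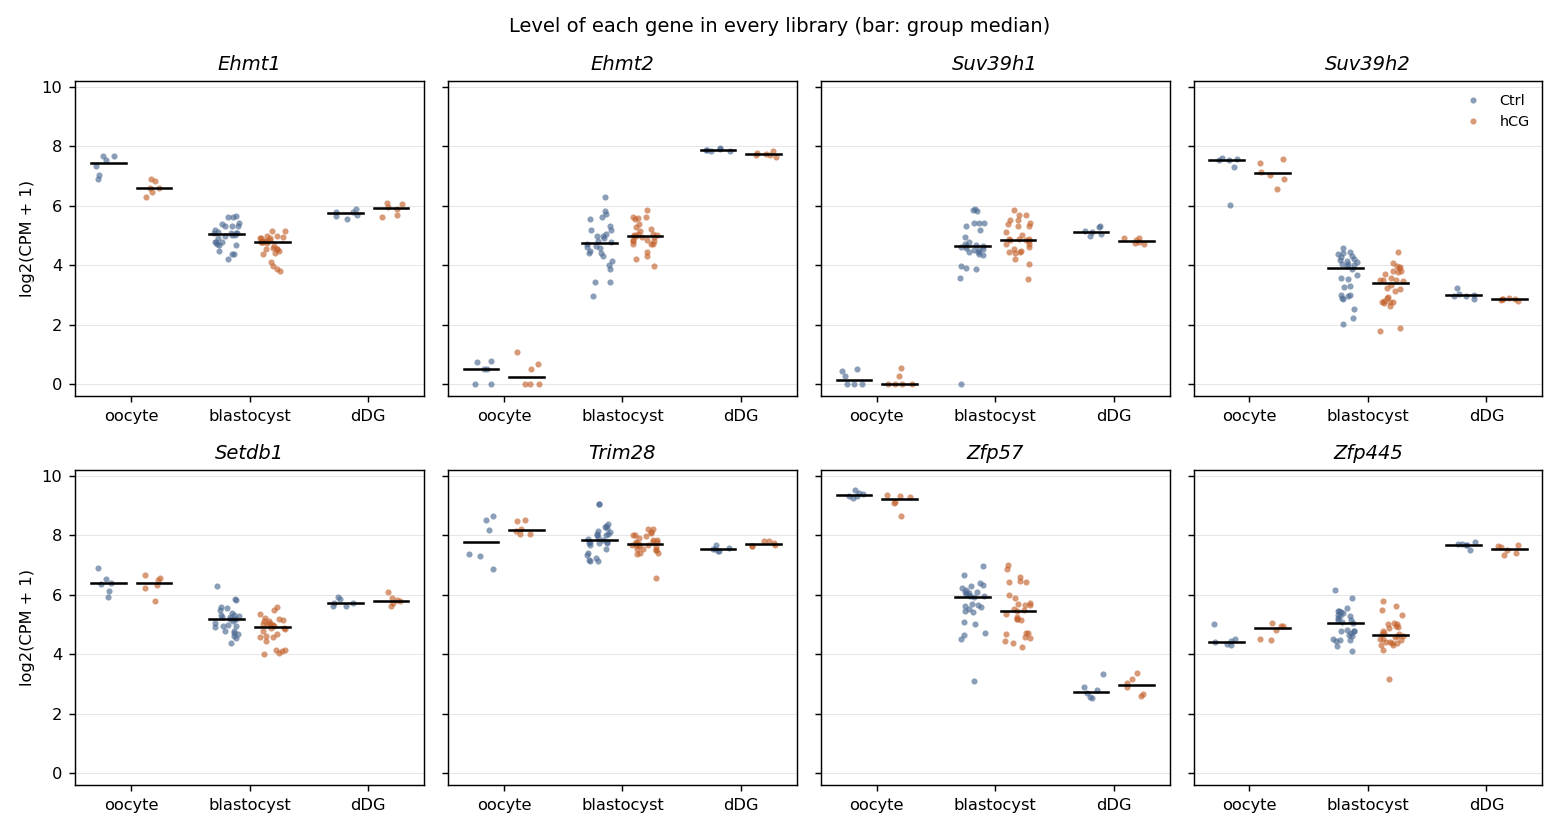
Level of the 8 genes in every library, as log2(CPM + 1) on the vertical axis, with Ctrl in blue and hCG in orange for oocyte, blastocyst and dDG; each point is 1 library and each bar a group median. Ehmt2 and Suv39h1 lie near 0 in oocytes, Zfp57 is highest in oocytes (Ctrl median 651 CPM) and Zfp445 is highest in dDG (Ctrl median 204 CPM).

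Ehmt1, the partner that stabilises G9a, fell in oocytes. The Ctrl libraries 1 to 6 held 187, 205, 163, 205, 130 and 118 CPM of Ehmt1, and the hCG libraries 77.1, 95.9, 118, 114, 87.7 and 97.3 CPM. Ctrl libraries 5 and 6 were the lowest of their group, and only the highest hCG library reached the lowest Ctrl library. Ehmt1 averaged 168 ± 37.8 CPM in Ctrl and 98.4 ± 15.5 CPM in hCG oocytes (SD, n = 6 each), a log2 fold change of -0.77 ± 0.16 (SE) or 0.587-fold (edgeR quasi-likelihood test, adjusted p = 0.00695). It was the only one of 6 tested members called in oocytes, where 3.99% of 9565 genes tested were called, 2.67% lower and 1.33% higher, and 3.03% had groups without overlap. The decrease passed the threshold in each of 19 alternative analyses, with an adjusted p of at most 0.0337. Without Ctrl libraries 2 and 4, which had the fewest reads and the fewest genes detected of the oocyte set, it was -0.62. The library names of Ctrl 6 and hCG 6 end in smart_seq3 in the labels, while their titles and columns say smart_seq2, and whether they were prepared differently is not given in the sources used here. Without these 2 libraries, left out after the data were seen, the log2 fold change of Ehmt1 was -0.85 (edgeR, adjusted p = 0.00730).

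Markers of the oocyte itself moved the same way in these libraries. Their summed level had a median of 8219 CPM in Ctrl and 7060 CPM in hCG oocytes, all 6 had negative fold changes, and 2 of them were called lower, Zp3 (zona pellucida) and Mos (the kinase that holds the metaphase II arrest), at -1.19 and -0.63. Their part in the Ehmt1 result was not tested.

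Ehmt1 fell in blastocysts as well. It ranged from 17.7 CPM over a median of 32.1 to 50.1 CPM in the 28 Ctrl libraries, and from 13 over 26.5 to 34.8 CPM in the 28 hCG libraries. The groups overlapped, yet 26 of 28 hCG libraries lay below the Ctrl median. The means were 32.2 ± 8.77 and 24.9 ± 5.83 CPM (SD), and the log2 fold change was -0.38 ± 0.10 (SE; limma on log2(CPM + 1), adjusted p = 0.00803). In blastocysts 16.2% of 10850 genes tested were called, 7.57% as lower and 8.68% as higher, and 0 had groups without overlap.

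In dDG, Ehmt1 was not called. The Ctrl libraries held 51.2, 46.5, 58.1, 49.6, 54.6 and 54.3 CPM and the hCG libraries 61.0, 48.9, 65.9, 67.4, 51.0 and 58.5 CPM. The sign was opposite to that of the other materials, with 4 hCG libraries above every Ctrl library, but the log2 fold change of 0.18 ± 0.08 had an adjusted p of 0.198 (edgeR). The hCG effect on Ehmt1 differed from that in dDG by -0.93 ± 0.21 (SE) in oocytes (adjusted p = 0.00802, where 5.13% of 7658 genes were called) and by -0.56 ± 0.13 in blastocysts (adjusted p = 0.00280, where 11% of 9341 genes were called), in limma interaction contrasts. Between oocytes and blastocysts the difference of -0.37 ± 0.20 did not pass (adjusted p = 0.248, where 11.5% of 7178 genes were called).

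Ehmt2, which encodes G9a, was near 0 in the oocyte table. Its 12 oocyte libraries held 0 to 1.12 CPM, 9 counts in all Ctrl libraries together and 11 in all hCG libraries, too few for a test. A limit of 3 counts stood at 0.433 to 1.26 CPM in these libraries. Because ribosomal protein genes were also listed near 0 in this table, no statement on the presence of G9a transcripts in oocytes follows from it.

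Blastocysts and dDG held Ehmt2 in every library. In Ctrl blastocysts it ranged from 6.85 over a median of 25.9 to 77.3 CPM, and in hCG blastocysts from 14.7 over 31.0 to 57.6 CPM. The Ctrl group was the wider of the 2 and enclosed the hCG group, and the log2 fold change of 0.24 ± 0.16 was not called (limma, adjusted p = 0.320; 95% interval -0.08 to 0.55). In dDG the Ctrl libraries held 244, 235, 234, 227, 243 and 229 CPM and the hCG libraries 221, 209, 211, 212, 197 and 229 CPM. Of the 6 hCG libraries, 5 lay below every Ctrl library. The log2 fold change of -0.13 ± 0.05 missed the threshold in edgeR (adjusted p = 0.105) and passed it in DESeq2 (adjusted p = 0.0360).

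Within the Ehmt pair, the share of reads from Ehmt2 was compared only between libraries, since transcript lengths were not used and a share does not rank the 2 genes. In blastocysts the median share was 47.2% in Ctrl and 56.1% in hCG, with ranges of 17.3 to 63.0% and 36.2 to 76.1%. In dDG it was 81.8% in Ctrl and 78.9% in hCG. The hCG group thus lay on opposite sides of Ctrl in the 2 materials, and the ranges overlapped in both.

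Suv39h1 was near 0 in oocytes, with 6 counts in the Ctrl libraries together and 3 in the hCG libraries, and the same limit of the oocyte table applies. Suv39h2, the paralog first known from the testis, held 193, 188, 187, 185, 159 and 64.6 CPM in Ctrl oocytes and 141, 130, 94.1, 192, 174 and 119 CPM in hCG oocytes. Ctrl library 6 stood below all others. The log2 fold change of Suv39h2 was -0.20 ± 0.21 and was not called (edgeR, adjusted p = 0.667; 95% interval -0.62 to 0.21).

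In blastocysts neither paralog was called. Suv39h1 ran from 0 over 23.9 to 58.4 CPM in Ctrl and from 10.6 over 28.2 to 56.7 CPM in hCG libraries, and the 0 belonged to Ctrl 12, the library with the fewest genes detected (10382). The log2 fold change of 0.29 ± 0.22 (adjusted p = 0.369) became 0.10 without Ctrl 12 and Ctrl 26 and -0.16 when genes detected per library entered the fit as a covariate. Across the 56 libraries, after group means were subtracted, Suv39h1 correlated with the number of genes detected at r = 0.57, the highest value among the 8 genes. Suv39h2 ran from 3.10 over 14.2 to 22.8 CPM in Ctrl and from 2.47 over 9.61 to 20.8 CPM in hCG libraries. Of the hCG libraries, 24 of 28 lay below the Ctrl median of Suv39h2, and the log2 fold change of -0.39 ± 0.18 did not pass (adjusted p = 0.128). Y-linked transcripts exceeded 10 CPM in 19 of 28 Ctrl and 20 of 28 hCG libraries, and with their level as a covariate the X-linked Suv39h1 gave 0.30 (adjusted p = 0.256).

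In dDG, Suv39h1 fell. The Ctrl libraries held 39.3, 32.2, 30.4, 33.5, 38.5 and 34.5 CPM and the hCG libraries 27.8, 29.3, 29.4, 26.3, 25.7 and 25.6 CPM. The 2 groups did not overlap, which was so for 4.50% of the 13874 genes tested. The means were 34.7 ± 3.49 and 27.3 ± 1.75 CPM (SD, n = 6 each), a log2 fold change of -0.33 ± 0.08 (SE) or 0.795-fold (edgeR, adjusted p = 0.0153), in a comparison where 7.86% of genes were called and 3.19% were called lower. All 12 dDG libraries held Y-linked transcripts, summing to 108 to 129 CPM, and at most 0.210 CPM of Xist. The call held without any single library, with an adjusted p of at most 0.0365.

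Both deposited transcripts of Suv39h1 were present in dDG. The median of NM_011514 was 18.9 CPM in Ctrl and 14.3 CPM in hCG, and that of NM_001290716 was 16.6 and 13.3 CPM, so their shares stayed near equal. With only the most abundant transcript of each gene, the log2 fold change was -0.43 (adjusted p = 0.0532). Suv39h2 was scarcer, at 6.39 to 8.39 CPM in Ctrl and 5.98 to 6.53 CPM in hCG dDG. For Suv39h2, 5 of 6 hCG libraries lay below every Ctrl library, but the log2 fold change of -0.17 ± 0.10 was not called (adjusted p = 0.323). The median share of Suv39h1 in the reads of this pair was 82.9% in Ctrl and 81.4% in hCG dDG, and 71.2% and 73.7% in blastocysts.

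**Figure D2:**
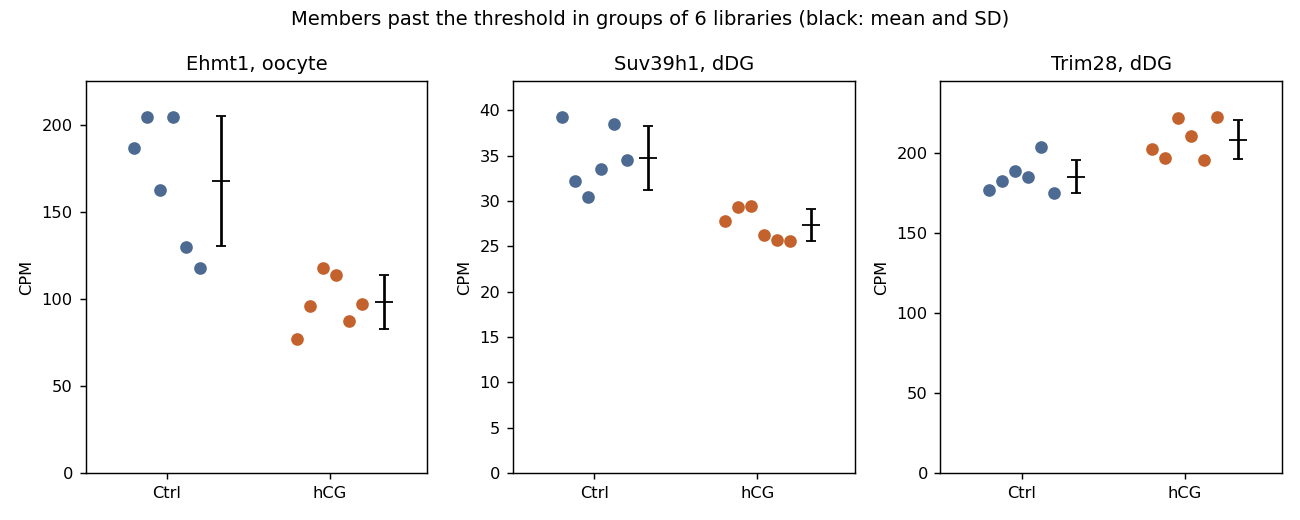
CPM on the vertical axis (from 0) of Ehmt1 in oocytes and of Suv39h1 and Trim28 in dDG, with 1 point per library in the order of its number and the mean and SD in black. The Suv39h1 groups do not overlap (Ctrl 30.4 to 39.3, hCG 25.6 to 29.4 CPM), whereas those of Ehmt1 meet at 118 CPM and those of Trim28 overlap between 196 and 204 CPM.

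Setdb1, the methyltransferase that works with TRIM28, fell in blastocysts. It ran from 19.8 over 35.0 to 76.7 CPM in Ctrl and from 14.9 over 29.1 to 46.4 CPM in hCG libraries, and 23 of 28 hCG libraries lay below the Ctrl median. The means were 36.2 ± 12.2 and 28.3 ± 8.34 CPM (SD, n = 28 each), a log2 fold change of -0.37 ± 0.11 (SE; limma, adjusted p = 0.0209). Ehmt1 and Setdb1 were the 2 of 8 members called in blastocysts, where 16.2% of 10850 genes tested were called and 7.57% were called lower. Both calls held in each of 10 alternatives that scaled the libraries, with an adjusted p of at most 0.0227 for Ehmt1 and 0.0443 for Setdb1.

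Without scaling, neither call remained. The deposited blastocyst values carry a factor per library, and on them the median gene was higher in hCG by 0.49 on the log2 scale, with 3655 genes called higher and 15 lower against 942 and 821 after scaling. There Ehmt1 was at 0.04 and Setdb1 at 0.05, both below that median, and Ehmt2 was called at 0.68 (adjusted p = 0.0197).

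Some cell type markers also differed between the blastocyst groups, where 16.2% of all genes tested were called. Of 8 trophectoderm markers, 2 were lower in hCG, Eomes at -0.69 and Gata2 at -0.88, with summed levels of 1713 to 11941 CPM in Ctrl and 2204 to 8520 CPM in hCG libraries. Of 6 markers of the inner cell mass, 1 was higher, Nanog at 0.58, with sums of 110 to 451 and 95.9 to 679 CPM. Of 7 primitive endoderm markers, Amn was higher (1.09) and Lrp2 lower (-0.34), 6 had negative fold changes, and the sums were 670 to 2176 and 661 to 1253 CPM. Of 5 uterine, stromal and blood markers 1 was tested, H2-Ab1, and it was higher at 0.98, with sums of 3.12 to 38.5 CPM in Ctrl and 3.63 to 49.0 CPM in hCG libraries, while Hbb-bs was at 0 throughout. The part of cell composition in the Ehmt1 and Setdb1 results was not tested.

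In oocytes Setdb1 held 91.3, 82.8, 81.6, 119, 68.4 and 60.1 CPM in Ctrl and 73.8, 79.6, 54.2, 88.1, 99.5 and 93.6 CPM in hCG libraries. The groups overlapped throughout (log2 fold change -0.05 ± 0.17, adjusted p = 0.918), and the sign turned without Ctrl 4 or without hCG 3. In dDG it held 47.7 to 59.0 CPM in Ctrl and 48.0 to 66.7 CPM in hCG libraries (0.09 ± 0.08, adjusted p = 0.486). The effect on Setdb1 in blastocysts differed from that in dDG by -0.46 ± 0.14 (SE; limma interaction, adjusted p = 0.0206). In that contrast 11% of 9341 genes were called.

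Trim28, the corepressor, was the member with the widest spread in Ctrl oocytes. The Ctrl libraries held 396, 291, 163, 363, 158 and 116 CPM and the hCG libraries 265, 293, 279, 361, 356 and 259 CPM. Ctrl libraries 1, 2 and 4 lay within or above the hCG range while 3, 5 and 6 lay below all hCG libraries, and the log2 fold change of 0.30 ± 0.23 was not called (edgeR, adjusted p = 0.527). In blastocysts Trim28 ran from 138 over 230 to 523 CPM in Ctrl and from 94.3 over 208 to 297 CPM in hCG libraries, and its change of -0.20 ± 0.10 was not called (adjusted p = 0.186).

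In dDG, Trim28 rose by a small amount. The Ctrl libraries held 177, 183, 189, 185, 204 and 175 CPM and the hCG libraries 203, 197, 222, 211, 196 and 223 CPM. Ctrl library 5 was the only one within the hCG range. The means were 186 ± 10.5 and 209 ± 11.9 CPM (SD, n = 6 each), a log2 fold change of 0.18 ± 0.05 (SE; edgeR, adjusted p = 0.0390), where 4.67% of genes were called higher. The call rested on the full set: it remained without Ctrl 5, hCG 2 or hCG 5 and missed the threshold without any other single library, with adjusted p of up to 0.0919. The effect on Trim28 in blastocysts differed from that in dDG by -0.38 ± 0.12 (limma interaction, adjusted p = 0.0287), where 11% of 9341 genes were called. The oocyte effect on Trim28 differed from the blastocyst effect by 0.61 ± 0.23, which did not pass (adjusted p = 0.0696). In that contrast 11.5% of 7178 genes were called.

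Some markers of granule neurons and of other brain cells differed between the dDG groups beside these results. Among all genes tested there, 7.86% were called, 4.67% as higher. Of 6 granule neuron markers, Prox1 and Glis3 were higher in hCG, at 0.36 and 0.53, with summed medians of 1237 CPM in Ctrl and 1428 CPM in hCG. All 6 had positive fold changes, with a median of 0.33, and DESeq2 also called Calb1 as higher. Of 4 microglia markers, Tmem119 was higher, at 0.31. None of 4 oligodendrocyte, 3 astrocyte, 3 endothelial and 3 pyramidal neuron markers was called by edgeR, with 1 of each list under an unadjusted p of 0.05, and DESeq2 called the astrocyte gene Gja1 as lower and Cldn5 (endothelial) and Fibcd1 (pyramidal) as higher. All 4 oligodendrocyte markers had negative fold changes, with summed medians of 1997 CPM in Ctrl and 1363 CPM in hCG, as had all 3 astrocyte markers, with 3352 and 2887 CPM. Choroid plexus markers summed to 29.0 to 105 CPM in Ctrl and 29.2 to 9601 CPM in hCG libraries, with 0 of 6 tested called by edgeR, DESeq2 or limma and 5 under an unadjusted p of 0.05. Their part in the Suv39h1 and Trim28 results was not tested.

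**Figure D3:**
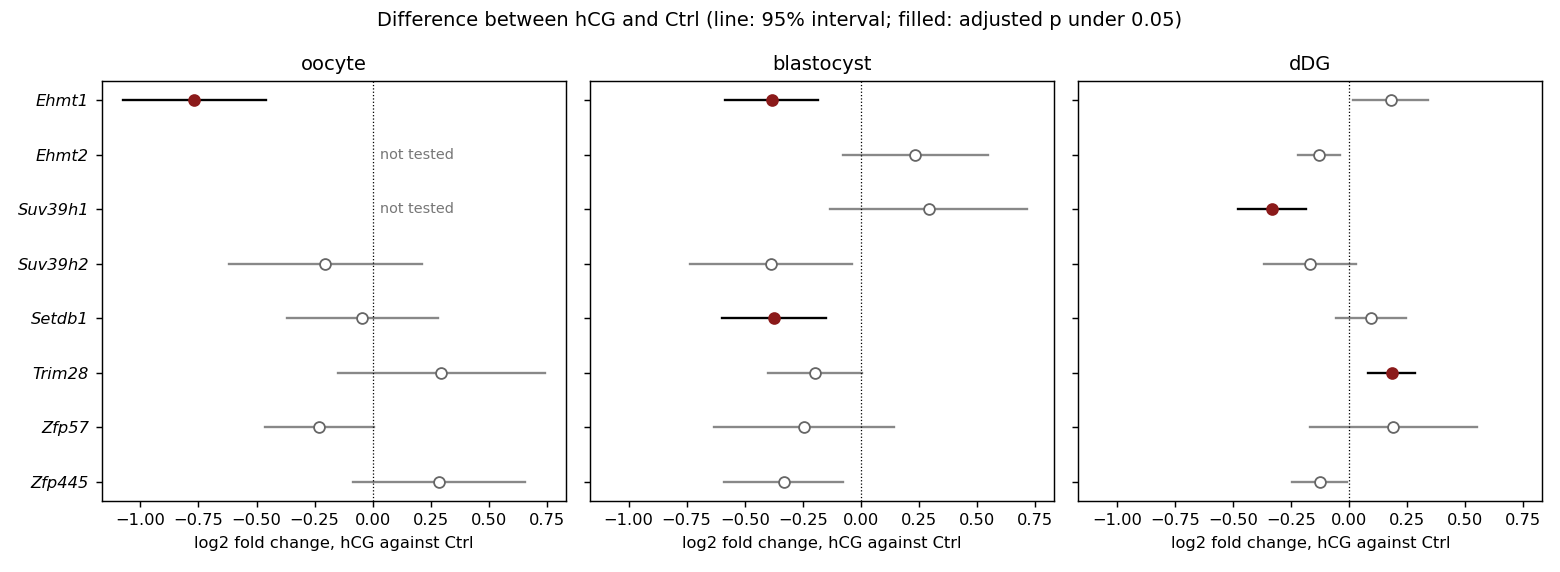
Log2 fold change of hCG against Ctrl on the horizontal axis for each gene in oocyte, blastocyst and dDG, with lines for the 95% interval and filled points for an adjusted p under 0.05. Ehmt1 is at -0.77 in oocytes, -0.38 in blastocysts and 0.18 in dDG; Ehmt2 and Suv39h1 were not tested in oocytes.

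Zfp57, the main imprint-protecting KRAB zinc finger protein of the oocyte and embryo, held 637, 664, 734, 689, 604 and 634 CPM in Ctrl oocytes and 541, 649, 399, 555, 641 and 624 CPM in hCG oocytes. All 6 hCG libraries lay below the Ctrl median of 651 CPM, 3 of them below every Ctrl library. The log2 fold change of -0.23 ± 0.12 was not called (edgeR, adjusted p = 0.321; 95% interval -0.47 to 0.01). In blastocysts Zfp57 ran from 7.60 over 60.1 to 124 CPM in Ctrl and from 17.7 over 43.0 to 128 CPM in hCG libraries (-0.25 ± 0.20, adjusted p = 0.417). In dDG it held 4.78 to 9.01 CPM in Ctrl and 4.99 to 9.18 CPM in hCG (0.19 ± 0.18, adjusted p = 0.561), and a median of 78.2% of its Ctrl reads was assigned to the non-coding transcript NR_033137.

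Zfp445, which shares the imprint-protecting role, held 20.1, 19.3, 21.8, 31.6, 20.7 and 18.6 CPM in Ctrl oocytes and 21.2, 29.5, 27.1, 21.8, 32.0 and 30.1 CPM in hCG oocytes. Every hCG library exceeded the Ctrl median, and Ctrl 4 stood above the rest of its group (0.29 ± 0.19, adjusted p = 0.444). In blastocysts Zfp445 ran from 16.2 over 32.2 to 69.8 CPM in Ctrl and from 7.97 over 24.2 to 54.1 CPM in hCG. Of the hCG libraries 23 of 28 lay below the Ctrl median, and the log2 fold change of -0.33 ± 0.13 missed the threshold (limma, adjusted p = 0.0701). In dDG the Ctrl libraries held 204, 203, 205, 180, 215 and 208 CPM and the hCG libraries 167, 198, 203, 191, 182 and 160 CPM. All 6 hCG libraries lay below the Ctrl median of 204 CPM, with a change of -0.13 ± 0.06 that was not called (edgeR, adjusted p = 0.219).

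The balance of the 2 zinc finger genes differed between the materials. Of the reads of Zfp57 and Zfp445 together, Zfp445 held a median of 2.97% in Ctrl oocytes, 34.6% in Ctrl blastocysts and 97.4% in Ctrl dDG. Among hCG libraries the medians were 4.48%, 39.3% and 96.1%. Oocyte libraries stayed at or below 6.36%, blastocyst libraries ran from 14.0 to 83.3% and dDG libraries held at least 95.7%, so the 3 materials did not overlap. The tables were made and scaled separately, so these shares are set side by side without a test.

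**Figure D4:**
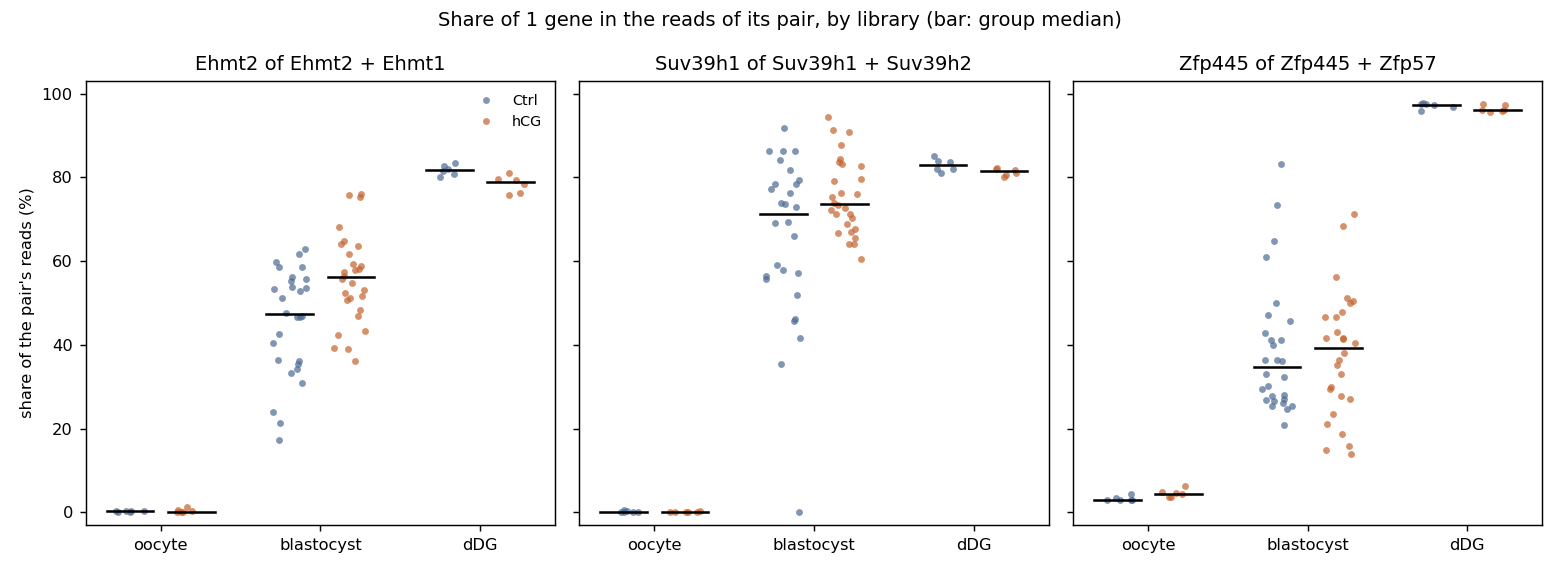
Share of 1 gene in the summed reads of its pair, in percent on the vertical axis, for each library of the 3 materials, with bars for group medians. Zfp445 goes from 2.97% (Ctrl oocytes) to 97.4% (Ctrl dDG), and blastocyst libraries spread widely in all 3 pairs.

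Levels across materials are set side by side without a test. By Ctrl medians, Ehmt1 stood at 175 CPM in oocytes, 52.8 CPM in dDG and 32.1 CPM in blastocysts, where the highest blastocyst library (50.1 CPM) reached into the dDG range. Setdb1 stood at 82.2, 51.9 and 35.0 CPM in the same order, and over both groups all 3 materials overlapped. Its hCG oocyte libraries went down to 54.2 CPM, while hCG dDG libraries reached 66.7 CPM and Ctrl blastocyst libraries 76.7 CPM. Trim28 stood at 227 CPM in oocytes, 230 CPM in blastocysts and 184 CPM in dDG and did not separate by material. Suv39h2 fell in order from oocytes (186 CPM) over blastocysts (14.2 CPM) to dDG (6.99 CPM), of which the last 2 overlapped. Suv39h1 stood at 34.0 CPM in dDG and 23.9 CPM in blastocysts, also with overlap, whereas every dDG library of Ehmt2 (197 CPM or more) exceeded every blastocyst library (77.3 CPM or less).

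Across the 56 blastocyst libraries, 5 pairs of genes known as partners or paralogs were compared, as log2(CPM + 1) after the group means were subtracted. Trim28 and Setdb1 rose and fell together, with Pearson's r = 0.45 and Spearman's rho = 0.35 (permutation test, two-sided, p = 4.80e-04 and 0.00902, adjusted over the 5 pairs 0.00240 and 0.0451). Without the 2 libraries farthest from the median of Trim28, r was 0.40 (permutation, adjusted p = 0.0157). Within the 28 Ctrl libraries r was 0.47 and within the 28 hCG libraries 0.43, where the adjusted permutation p missed the threshold at 0.0553 and 0.0676. The permutation sets r against 0 and does not show a link particular to this pair. The 3 genes most like Trim28 had r of 0.62 to 0.68, and the 3 most like Setdb1 0.60 to 0.61.

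The other 4 pairs did not pass over the 56 libraries. Ehmt1 and Ehmt2 gave r = 0.00 and rho = -0.07 (permutation p = 1.000 and 0.635). Trim28 and Zfp57 gave r = 0.21 and rho = 0.19 (permutation p = 0.131 and 0.155). Zfp57 with Zfp445 gave r = -0.14 and rho = -0.09 (permutation p = 0.314 and 0.510), and Suv39h1 with Suv39h2 gave r = -0.23 and rho = -0.16 (permutation p = 0.109 and 0.252). Adjusted over the 5 pairs, the lowest of these p-values was 0.218. Within groups, Trim28 and Zfp57 gave r = 0.41 in hCG (permutation, adjusted p = 0.0676) and 0.06 in Ctrl libraries (adjusted p = 0.758), and Suv39h1 and Suv39h2 gave r = -0.39 in Ctrl (permutation, adjusted p = 0.0889) and 0.13 in hCG libraries (adjusted p = 0.564); these differences between groups were not tested. Without the 2 libraries farthest from the median of the first gene, r was 0.02, 0.20, -0.07 and -0.05 in this order.

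**Figure D5:**
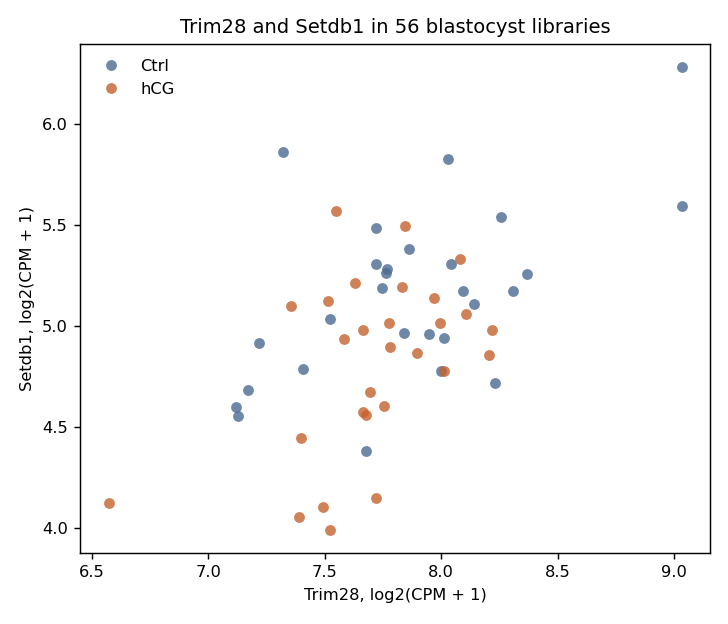
Trim28 (horizontal) against Setdb1 (vertical), both as log2(CPM + 1), in 28 Ctrl and 28 hCG blastocyst libraries, 1 point per library. The points rise together (r = 0.45 after group means are subtracted), with 2 Ctrl libraries at the top of Trim28 (523 CPM).

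The genes whose levels across these 56 libraries were most like each member were ranked among 7692 genes by Pearson's r, as a description of libraries that share depth and cell makeup. Zfp57 was most like Id3 (r = 0.76), Tdgf1 (0.71) and Bckdhb (0.70). Id3 and Tdgf1 encode an inhibitor of basic helix-loop-helix factors and a NODAL co-receptor. Setdb1 was most like Add1 (0.61), the proliferation marker Mki67 (0.60) and Trim44 (0.60), and Trim28 most like Rpsa (0.68), Col4a2 (0.63) and Hip1 (0.62). Ehmt1 was most like Zzef1 (0.57), the corepressor scaffold Sin3a (0.55) and Bod1l (0.55), and Ehmt2 most like Rrp9 (0.61), Plekhg3 (0.60) and Ciao2b (0.59). Zfp445 was most like Scd2 (0.63), the X-linked helicase Ddx3x (0.59) and Bclaf1 (0.58), and Suv39h2 most like Dap3, Dnajc25 and Ubxn2b (0.51 each). The likeness of Suv39h1 to Pqbp1 (0.78), Taz (0.77) and Nup107 (0.76) rested in part on Ctrl 12 and Ctrl 26, without which it was 0.55, 0.60 and 0.46.

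Genes that work with these enzymes were read against the 3.99% of all genes called in oocytes. None of 3 tested other H3K9 methyltransferases, 5 partners of G9a and GLP, 14 partners of TRIM28 and SETDB1 with HUSH and chromatin assembly factors, 2 HP1 proteins or 8 H3K9 demethylases was called there by edgeR, DESeq2 or limma. Before adjustment 0, 0, 3, 0 and 3 of them in this order had an edgeR p under 0.05. Of the abundant members, Mphosph8, a HUSH subunit, averaged 1594 ± 141 CPM in Ctrl and 1742 ± 137 CPM in hCG oocytes, and the HP1 gene Cbx1 504 ± 44.5 and 457 ± 34.5 CPM. Of 9 other imprint maintenance factors 1 was called, Dnmt1, the maintenance DNA methyltransferase, which fell from 673 ± 223 to 392 ± 101 CPM (-0.78 ± 0.19, adjusted p = 0.0212). Of 4 other KRAB zinc finger genes with known targets 1 was called, Zfp961, lower by a log2 value of -1.28 ± 0.34 (adjusted p = 0.0443). Of 13 tested genes of imprinted regions bound by ZFP57 1 was called, Igf2r, at -0.97 ± 0.20 (adjusted p = 0.00865), and of 10 germline genes silenced through H3K9 methylation Hormad1 was called, at -0.86 ± 0.22 (adjusted p = 0.0281).

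In blastocysts more of these genes were called, as were more genes in general (16.2%). Of 15 partners of TRIM28 and SETDB1, 2 rose and 3 fell. Tasor and Tasor2, of the HUSH silencing complex and its relative, fell by log2 values of -0.42 ± 0.12 and -0.57 ± 0.11 (adjusted p = 0.0101 and 7.89e-04). Pphln1, the periphilin subunit of HUSH, rose by 0.25 ± 0.08 (adjusted p = 0.0284) and Chaf1b, of the histone chaperone CAF-1, by 0.48 ± 0.15 (adjusted p = 0.0214). The third to fall was Atrx (-0.33 ± 0.12, adjusted p = 0.0474), named after its value was seen. The list's median was -0.13, beside 0.02 over all genes tested.

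The called readers and erasers of the mark were all lower, where 7.57% of all genes tested were called lower and 8.68% higher. Of the 3 HP1 proteins, which bind methylated H3K9, Cbx3 fell by -0.38 ± 0.14 and Cbx5 by -0.31 ± 0.10 on the log2 scale (adjusted p = 0.0428 and 0.0244). Of 9 tested H3K9 demethylases, 7 had negative fold changes. Kdm3b, Jmjd1c and Kdm4c were called lower, at -0.38, -0.44 and -0.45 (limma, adjusted p = 0.00468, 0.0343 and 0.0421). Of 6 partners of G9a and GLP, Zfp518a was lower (-0.35 ± 0.13, adjusted p = 0.0463), and neither of the 2 other H3K9 methyltransferases tested, Setdb2 and Prdm2, was called by limma or edgeR, with 0 under an unadjusted p of 0.05. In edgeR on the estimated reads Zfp518a and Kdm4c were not called.

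Of 10 other imprint maintenance factors in blastocysts, Uhrf1 (which guides DNMT1) and Ctcf (the insulator protein) were lower, at -0.52 ± 0.13 and -0.52 ± 0.11 (adjusted p = 0.00463 and 0.00174). Zfp809, a KRAB zinc finger gene known to silence proviruses, was the 1 of 6 that rose (0.37 ± 0.11, adjusted p = 0.0192). Of 18 tested genes of imprinted regions bound by ZFP57, Mest was higher (0.73 ± 0.21, adjusted p = 0.0157), Kcnq1ot1 lower (-0.79 ± 0.17, adjusted p = 0.00161) and Inpp5f lower (-0.45 ± 0.14, adjusted p = 0.0198). Their median was -0.07. None of 12 tested germline genes was called by limma or edgeR, and 2 had an unadjusted p under 0.05.

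In dDG, where 7.86% of all genes tested were called, edgeR called 1 of 7 partners of G9a and GLP, the chromodomain gene Cdyl, which fell from 12.5 ± 0.797 to 9.27 ± 1.38 CPM (-0.42 ± 0.10, adjusted p = 0.0186). Fam208a, the older symbol of Tasor in this table, was the 1 of 13 tested TRIM28 and SETDB1 partners called by edgeR, and it rose by 0.30 ± 0.06 (adjusted p = 0.0112). Cbx5 was higher (0.21 ± 0.06, adjusted p = 0.0430) and Arid4a lower (-0.20 ± 0.06, adjusted p = 0.0437). Of 5 other H3K9 methyltransferases, 10 demethylases, 5 KRAB zinc finger genes, 4 germline genes and 25 genes of imprinted regions tested, 0 were called by edgeR or limma, and 1, 2, 1, 0 and 4 in this order had an unadjusted p under 0.05. DESeq2 also called Kdm7a, Peg10 and the TRIM28 and SETDB1 partner Morc2a as higher and Phf8, Peg3 and the G9a and GLP partner Cdyl2 as lower, named after the values were seen. Among the most abundant genes of imprinted regions, Snrpn stood at -0.19 ± 0.08 (p = 0.0288 before adjustment, 0.153 after) and Gnas at -0.08 ± 0.07.

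Among all genes with a Zfp symbol, 4 rose and 5 fell of 199 tested in oocytes, 9 rose and 7 fell of 279 in blastocysts, and 5 rose and 4 fell of 314 in dDG, where 3.99%, 16.2% and 7.86% of all genes tested were called in this order. The median log2 fold change of the 8 members was -0.12 over the 6 tested in oocytes, -0.29 in blastocysts and -0.02 in dDG, beside 0.01, 0.02 and 0.00 over all genes tested.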

How the data were processed

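The deposited oocyte table holds counts per gene symbol, whole numbers per the file headers and values. The deposited dDG table holds expected counts per RefSeq transcript, which were summed by gene and rounded. The deposited blastocyst table holds a signal: estimated counts times a factor per library whose basis is not given in the sources used here. In each library a smallest step of 39.29 to 244.49 divided 89.0% to 93.46% of the values without remainder (tolerance 0.005), and dividing by it gave estimated reads. Per the submitters' processing notes, STAR 2.7.6a, TopHat, Bowtie2, HTSeq 0.12.4 and the builds mm10 and GRCm38 were used, with no role stated for each.

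For oocytes and dDG the test was the quasi-likelihood F test of edgeR 4.0.16 with robust dispersions, TMM factors and the default low-count filter, in R 4.3.3. Blastocyst values were tested with limma 3.58.1 (trend, robust) on log2 of TMM-normalised CPM plus 1, so folds of low genes are understated. Each whole table was fitted, with Benjamini-Hochberg adjustment over all genes tested. Differences of the hCG effect between materials came from a separate limma fit for each pair of materials, with a weight per material. For edgeR the SE was derived from the log2 fold change and its F value. Intervals of fold changes are normal approximations and, like library depth, cover only part of the error. An interval can thus exclude 0 where the test does not pass, as for Zfp445 in dDG (-0.25 to -0.007, edgeR p = 0.0544 before adjustment). Alternatives included DESeq2 1.42.0, other factors, filters and pseudocounts, covariates and left-out libraries. The scripts were tested on simulated data.

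The members and the gene lists were chosen with earlier results of these data known. Named genes were the 8 members, up to 4 called genes per list and table by smallest p (or the 2 most abundant where none was called), and the 3 genes most like each member. Some symbols turned into dates (23 in the oocyte and 25 in the dDG table) were not used.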

Additional observations from a re-analysis of the deposited data

Results flagged for a closer look

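A library stood apart from the other 5 of its group, beyond the 95% critical value of Dixon's test, in 4 of 32 sets of 6 libraries; chance marks about 1 in 20 such sets. Suv39h2 in oocytes was 64.6 CPM in Ctrl 6 against 159 to 193 CPM in the other Ctrl libraries, and Zfp445 in oocytes was 31.6 CPM in Ctrl 4 against 18.6 to 21.8 CPM. Suv39h2 in dDG was 8.39 CPM in Ctrl 5 against 6.39 to 7.14 CPM, and Zfp445 in dDG was 180 CPM in Ctrl 4 against 203 to 215 CPM. All 4 lay in Ctrl groups, and none of these genes was called in that material.

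The hCG effect differed between materials, by limma interaction contrasts past the threshold, for 3 genes. Over all genes tested, 5.13% of 7658 were called for oocyte minus dDG and 11% of 9341 for blastocyst minus dDG. For oocyte minus blastocyst, 11.5% of 7178 were called. For Ehmt1 the oocyte effect minus the dDG effect was -0.93 and the blastocyst effect minus the dDG effect -0.56 on the log2 scale. For Setdb1 and Trim28 the blastocyst effect minus the dDG effect was -0.46 and -0.38.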

How the results depend on the processing

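Of 429 alternative values for single genes, levels, differences and correlations, 395 counted as unchanged. For fold changes, differences and correlations this meant the same direction and side of the threshold. For levels, which have neither, it meant a mean moved by less than the SD between libraries, and all levels met this. The oocyte call of Ehmt1 was made in each of its 19 alternatives, and 1 member was called in each fit without 1 library (log2 fold changes of Ehmt1 from -0.86 to -0.71). Setdb1 in oocytes, not called, ranged from -0.12 to 0.067 over the fits without 1 library and was 0.086 without Ctrl 2 and Ctrl 4. In blastocysts the count of 2 called members became 1 on values that were not scaled, where the folds turned to 0.036 for Ehmt1, 0.048 for Setdb1, 0.0075 for Suv39h2, 0.24 for Trim28, 0.19 for Zfp57 and 0.088 for Zfp445, around a median gene of 0.49; Suv39h1 turned to -0.16 with genes detected as a covariate.

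In dDG the count of 2 called members ranged from 1 to 2 over the fits without 1 library, was 1 without the low-count filter, and was 0 on the most abundant transcript of each gene, where Ehmt1 turned to -0.13 and Suv39h2 to 0.38. The difference between oocytes and blastocysts for Zfp57 turned to -0.011 with a pseudocount of 5 CPM. Within Ctrl only and within hCG only, 0 of 5 pairs correlated past the adjusted permutation threshold, and r turned to -0.29 for Ehmt1 with Ehmt2 and to 0.13 for Suv39h1 with Suv39h2 within hCG. The causes were not tested.

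Replicate numbers are shared between hCG and Ctrl, and whether they pair the samples is not given in the sources used here. The deviations of same-numbered libraries correlated at -0.188 to 0.210 in oocytes, -0.213 to 0.169 in blastocysts and -0.157 to 0.138 in dDG. In this order, 3 of 12, 1 of 56 and 0 of 12 libraries correlated best with their own number. Such values cannot show that no litter, day or batch was shared. The main tests did not use the numbers. With the replicate number as a block, 1, 3 and 0 members were called in the 3 materials; Zfp445 in blastocysts passed (adjusted p = 0.0491), and Suv39h1 and Trim28 in dDG did not (0.0559 and 0.102). Some counts over all genes moved by over 1.5 times. In oocytes they ran from 127 higher and 255 lower to 292 and 365 without Ctrl 4, 271 and 324 without Ctrl 2 and Ctrl 4, 80 and 167 without Ctrl 3, and 272 and 433 with DESeq2. In dDG they ran from 648 and 443 to 404 and 277 without Ctrl 2, 416 and 266 without Ctrl 3, 395 and 254 without Ctrl 6, and 388 and 195 with the replicate block. In blastocysts they ran from 942 and 821 to 667 and 480 without 5 libraries that held both Xist and Y-linked transcripts, 337 and 437 with genes detected as a covariate, and 3655 and 15 without scaling, while edgeR on the estimated reads called 576 and 972. All 5 libraries left out for Xist and Y-linked transcripts were of the hCG group. Without them Ehmt1 was at -0.37 and Setdb1 at -0.37 (limma, adjusted p = 0.0197 and 0.0421).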
